A study of Mus musculus with 24 samples.

Results

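The miR-26 and miR-101 precursors are described here in small RNA libraries made from cultured mouse CD4+ T cells and from extracellular vesicles (EVs) in their medium. The members were chosen by name, and 5 of them were listed among the 4408 features of the deposited counts, 254 of which were miRNA precursors: Mir26a-1, Mir26a-2, Mir26b, Mir101a and Mir101b. Mir101c was also sought and was not analysed here. All 5 members passed the filter on low counts, and their counts ran from 350 to 6903 in a library.

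Spleens and lymph nodes of C57BL/6 mice were the source of the T cells, and 24 libraries made 8 groups of 3, one of cells and one of EVs for each of 4 cultures. Resting cells were not naive: 2 days of stimulation and 1 day of expansion preceded 2 days of rest with IL2. Stimulated cells had spent 3 days on plate-bound anti-CD3 at 2 µg/ml and anti-CD28 at 5 µg/ml. DMSO and GW4869 cultures had been stimulated for 3 days with the vehicle or with GW4869, an inhibitor of neutral sphingomyelinase that is used to lower vesicle release, at antibody doses that the sources used here do not give. Time in culture and earlier treatment differ between resting and stimulated cultures too and cannot be told apart from stimulation. No label gives the animal or culture behind a library, so p-values measure the spread between libraries, which may be technical.

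A miRNA is cut from a hairpin precursor, and its seed, bases 2 to 8, leads the Argonaute complex to matching mRNAs. The miR-26 precursors lie inside genes of the CTDSP phosphatases, which act on RNA polymerase II and on the retinoblastoma protein, and Myc is known to repress miR-26 in tumour cells. Both miR-26a and miR-101 are known to repress Ezh2, a histone methyltransferase, and in T cells miR-101 is known for limiting the costimulatory receptor Icos. The sequences below, from RefSeq on GRCm38.p6, are shown because they decide which members can share reads and targets, with the seed in capitals.
miR-26a-5p: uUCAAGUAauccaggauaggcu
miR-26b-5p: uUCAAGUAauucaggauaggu
miR-101a-3p: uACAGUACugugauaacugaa
miR-101b-3p: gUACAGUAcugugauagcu
miR-26a-1-3p: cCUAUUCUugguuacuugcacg
miR-26a-2-3p: cCUGUUCUugauuacuuguuuc

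Mir26a-1 and Mir26a-2 give 1 identical mature miR-26a-5p. Their opposite arms differ at 6 of 22 bases (A4G, G11A, C19U, A20U, C21U and G22C, counted from the 5′ end of miR-26a-1-3p). Against miR-26b-5p, miR-26a-5p differs over 21 bases by C11U and C21U, both outside the seed. The seed UCAAGUA was held by miR-26a-5p and miR-26b-5p alone among 1679 mature names. miR-101b-3p starts 1 base before miR-101a-3p, so their seeds are shifted, and over 18 aligned bases they differ by A16G, counted from the 5′ end of miR-101a-3p. The seeds ACAGUAC of miR-101a-3p and UACAGUA of miR-101b-3p were each found in 1 name. The files count a precursor without separating its arms, so a count cannot be assigned to one of these strands.

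On GRCm38 (GENCODE M21), Mir26a-1 lies on chromosome 9 (119031796 to 119031885, plus strand), in an intron of Ctdspl. Mir26a-2 lies on chromosome 10 (126995530 to 126995613, plus strand), in Ctdsp2, where it overlaps annotated exons by 1 base and is otherwise intronic. Mir26b lies on chromosome 1 (74394310 to 74394394, plus strand), in an intron of Ctdsp1. Mir101a lies on chromosome 4 (101346945 to 101347027, minus strand), with all 83 bases inside an exon of the non-coding gene E130102H24Rik. Mir101b lies on chromosome 19 (29135279 to 29135375, plus strand), in an intron of Rcl1, which encodes a factor of ribosomal RNA processing.

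The host genes gave no separate reading of these loci. Mir26b counts were at least 99.71% of Ctdsp1 counts in each of the 24 libraries, and Mir101b counts at least 98.27% of Rcl1 counts. Mir26a-2 made up 96.56% to 99.95% of Ctdsp2, Mir26a-1 88.59% to 99.73% of Ctdspl, and Mir101a 87.47% to 99.93% of E130102H24Rik. The host counts thus held nearly the same reads as the precursors, and they are no mRNA levels.

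Library totals ran from 1290918 to 3231626 counts. Levels are CPM values (counts scaled to a common library size) with TMM factors, which sets the bulk of features equal between libraries. Overlap of groups is described for the members alone and was not counted over other rows. The 6 blood cell miRNA rows listed were Mir142, Mir150, Mir155, Mir146, Mir181a-1 and Mir181a-2. They summed to 241300 to 270900 CPM in resting cells and to 21700 to 33800 CPM in GW4869 EVs. In stimulated against resting cells 4 of the 6 fell, whereas Mir155 (log2 fold 1.66) and Mir146 (1.76) rose. There 49.2% of all miRNA rows fell and 9.06% rose. Of the markers of other cells, Mir451a (erythroid) stood at 9.68 to 95.9 CPM, Mir126a and Mir126b (platelet and endothelial) together at 60.4 to 327 CPM, Mir192 and the Mir194 rows (liver and serum) at 35.1 to 464 CPM and Mir200c with Mir141 (epithelial) at 35.1 to 145 CPM. Mir126a and Mir126b had equal folds for stimulated against resting, so they may hold the same reads and their sum may count these again. Myeloid, muscle and stromal marker miRNAs were not analysed here. A smaller amount per cell and fewer cells of a kind cannot be told apart in such bulk libraries. Stimulated cells replicate 2 and DMSO EVs replicate 2 stood apart for the members. There Mir26a-1 lay 0.80 and 0.50 below the other libraries of its group on the log2 scale, with 2 other miRNA rows as low or lower in each. Mir101a lay 0.55 and 0.98 above the other libraries of its group. So did many miRNA rows: their median lay 0.32 and 0.73 above, and 53 and 59 other rows were as high as Mir101a or higher.

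The members differed in their change between resting and stimulated cultures. In cells the 3 miR-26 precursors fell most, Mir101a fell less and Mir101b did not pass the test. Mir26a-1 was at 3380, 3182 and 3524 CPM in the 3 resting cell libraries and at 559, 319 and 552 CPM in the stimulated ones. The groups were far apart, with stimulated cells replicate 2 the lowest. The log2 fold was -2.82 ± 0.21 (SE), or 7.05-fold lower (adjusted p = 1.99e-11, quasi-likelihood test of edgeR, Benjamini-Hochberg adjustment), and 3 of the 254 miRNA rows fell further: Mir139, Mir150 and Mir26a-2. Without stimulated cells replicate 2 it was -2.60. Mir26a-2, the second source of miR-26a, followed it at 3104 to 3486 CPM against 321 to 559 CPM, with a log2 fold of -2.83 ± 0.21.

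Of the markers of other cells, the 3 liver and serum rows were also lower after stimulation, 3 of 3 in cells and in EVs. Their median log2 folds were -2.10 and -2.35, where 49.2% and 79.1% of all miRNA rows fell. They summed to 421 to 464 CPM in resting cells and to 92.9 to 115 CPM in stimulated cells. Mir122, which defines hepatocytes, was not analysed here. The 2 platelet and endothelial rows had equal folds in each comparison, so they may hold the same reads. They were called lower in EVs (median -0.89), and 0 of 2 were called in cells. Mir451a rose by 1.98 on the log2 scale in stimulated cells. Whether other cells were present, and their part in the fall of the members, was not tested.

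Mir26b, the third precursor with this seed, was at 3860, 3985 and 4018 CPM in resting cells and at 955, 673 and 876 CPM in stimulated cells, again without overlap. Its log2 fold was -2.24 ± 0.19 (adjusted p = 2.18e-10, same test). Mir101a was at 1127, 1256 and 1280 CPM in resting cells and at 329, 449 and 287 CPM in stimulated cells. These groups did not overlap either, and stimulated cells replicate 2, lowest for miR-26, was the highest for Mir101a. The log2 fold of Mir101a was -1.78 ± 0.24 (adjusted p = 9.76e-07).

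Mir101b was at 1443, 1640 and 1777 CPM in resting cells and at 1276, 1728 and 1141 CPM in stimulated cells, and the groups overlapped. Its log2 fold of -0.23 (95% interval -0.72 to 0.26, adjusted p = 0.471, same test) did not pass, and with library totals in place of TMM scaling it was 0.57 (adjusted p = 0.0181), in the other direction. In all, 4 of the 5 members were called lower in stimulated cells, where 23.1% of all features and 49.2% of miRNA rows were. The median log2 fold was -2.24 over the members, -0.64 over the 254 miRNA rows and -0.05 over all features.

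**Figure D1:**
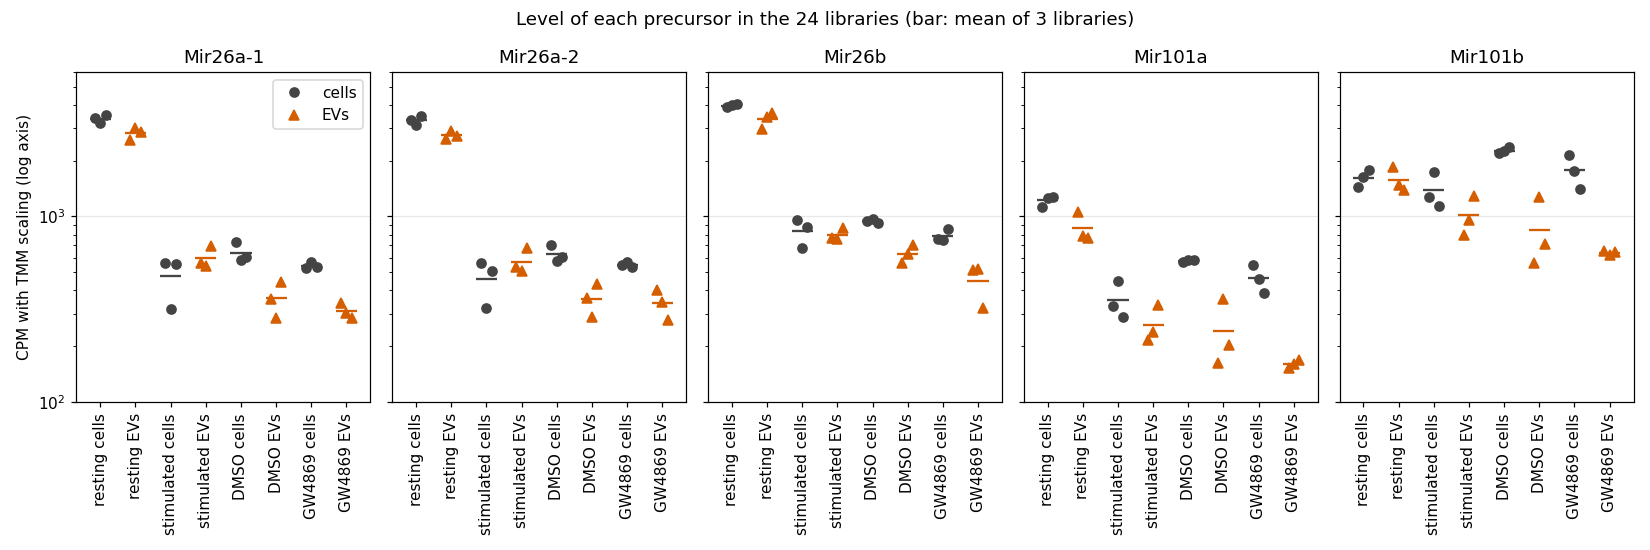
CPM with TMM scaling (log axis) of each precursor in the 24 libraries, by group, with circles for cells, triangles for EVs and a bar at the mean of 3 libraries. The miR-26 precursors stand at 2586 to 4018 CPM in the resting groups and at 276 to 975 CPM in the others, whereas Mir101b in stimulated cells (1141 to 1728 CPM) overlaps resting cells (1443 to 1777 CPM).

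The EVs of the same conditions gave all 5 members lower after stimulation, where 25.2% of all features were called lower and 79.1% of miRNA rows. Mir26a-1 was at 2586, 2985 and 2835 CPM in resting EVs and at 561, 541 and 693 CPM in stimulated EVs. The log2 fold was -2.23 ± 0.20 (adjusted p = 1.24e-09, quasi-likelihood test of edgeR, Benjamini-Hochberg adjustment), and here 32 miRNA rows fell further. Mir26a-2 stood at -2.25 ± 0.21 and Mir26b at -2.06 ± 0.19 on the same scale, with Mir26b at 2939, 3430 and 3614 CPM in resting EVs and at 770, 758 and 865 CPM in stimulated EVs. No stimulated EV library reached a resting one for any miR-26 precursor.

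Mir101a was at 1051, 784 and 770 CPM in resting EVs and at 216, 238 and 333 CPM in stimulated EVs, a log2 fold of -1.73 ± 0.24 (adjusted p = 1.32e-06, same test). Mir101b was at 1843, 1471 and 1384 CPM against 799, 958 and 1289 CPM, without overlap. Its log2 fold was -0.63 ± 0.24 (adjusted p = 0.0297). This call was lost without resting EVs replicate 1 (-0.49, adjusted p = 0.122), stimulated EVs replicate 1 (-0.48, 0.144) or stimulated EVs replicate 2 (-0.58, 0.0848), and under library totals the value was 0.47 (0.0323), in the other direction. Library totals moved the median of all features by 0.82 in cells and 1.12 in EVs. The folds of Mir26a-1, Mir26a-2, Mir26b and Mir101a were then -1.97, -1.99, -1.41 and -0.99 in cells and -1.12, -1.15, -0.94 and -0.63 in EVs, all still called. With TMM computed over miRNA rows alone Mir101b was higher in stimulated cells (0.80) and EVs (0.83), and Mir101a in EVs (-0.27, adjusted p = 0.148, edgeR) was no longer called.

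**Figure D2:**
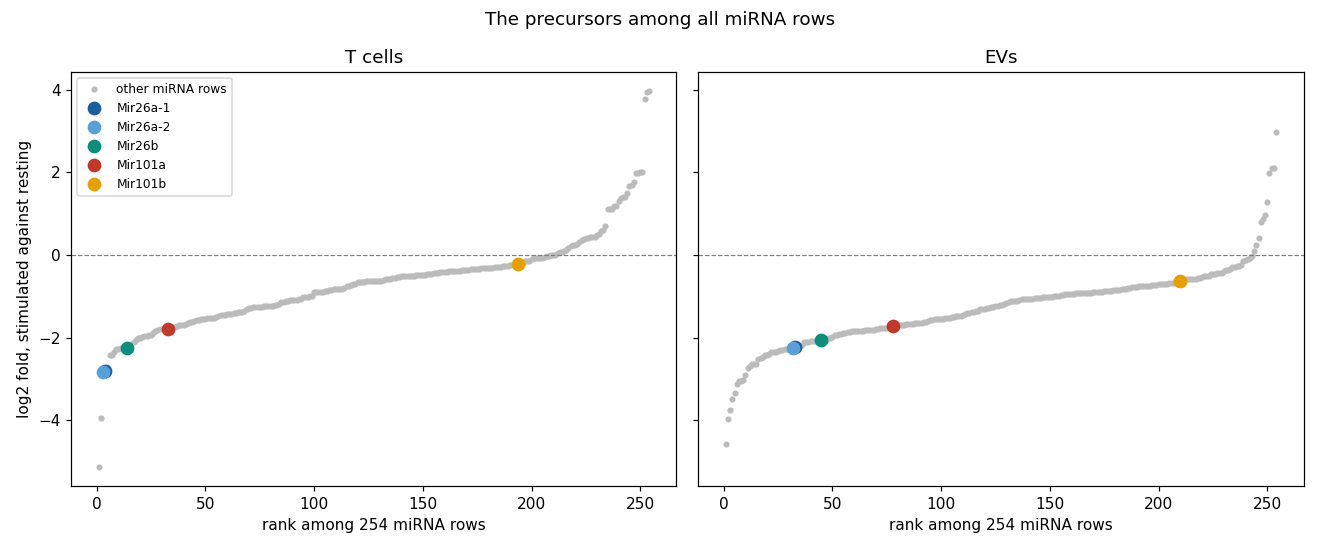
The 254 miRNA rows ordered by log2 fold of stimulated against resting, in T cells (left) and EVs (right), with the 5 precursors in colour and the other rows in grey. In cells Mir26a-1 and Mir26a-2 have 3 and 2 rows below them, whereas Mir101b has 193 rows below it.

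**Figure D3:**
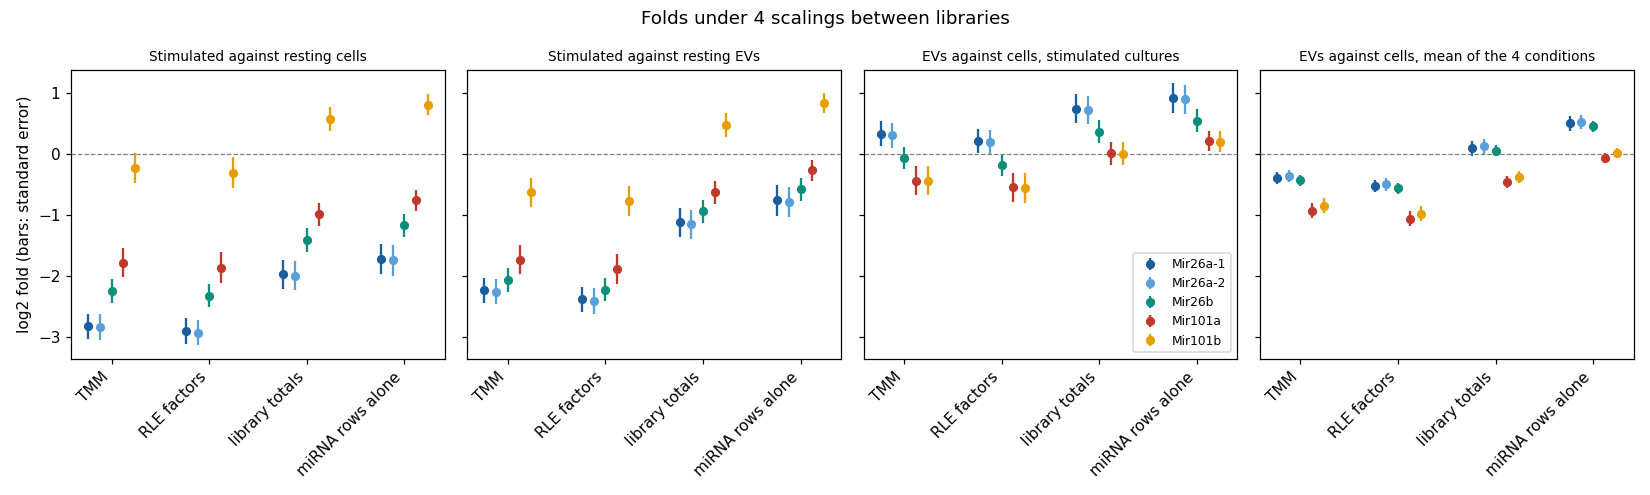
Log2 folds of the precursors (points, with standard errors) in 4 comparisons under TMM, RLE factors, library totals and TMM over miRNA rows alone. The miR-26 precursors and Mir101a stay below 0 for stimulated against resting under each scaling shown, whereas Mir101b goes from -0.23 to 0.57 in cells and from -0.63 to 0.47 in EVs under library totals.

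A ratio of counts within a library needs no scaling between libraries. Such ratios are read here for change only, since precursors can be sequenced with unequal efficiency. The Mir101b to Mir101a ratio was 1.28, 1.30 and 1.39 in resting cells and 1.75, 1.88 and 1.80 in resting EVs. In stimulated cells it was 3.87, 3.85 and 3.98, and in stimulated EVs 3.70, 4.03 and 3.87. All 6 stimulated libraries stood far above all 6 resting ones. The mean log2 difference over cells and EVs was 1.33 (p = 0.005, two-sided exact permutation test within cells and EVs, the smallest p that 400 arrangements can give; adjusted p = 0.0163 over 13 ratio tests added after the counts were seen). The DMSO cultures, which shared the resting libraries as their comparison, had ratios of 3.84, 3.86 and 4.05 in cells and of 3.48, 3.51 and 3.46 in EVs, a difference of 1.26 (p = 0.005, adjusted p = 0.0163, same exact permutation test).

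The members of the miR-26 family also changed unequally. The Mir26b to Mir26a-1 ratio was 1.14, 1.25 and 1.14 in resting cells and 1.71, 2.11 and 1.59 in stimulated cells. In EVs it was 1.14, 1.15 and 1.27 at rest and 1.37, 1.40 and 1.25 after stimulation, and these EV groups overlapped. The mean log2 difference was 0.39 (p = 0.01, adjusted p = 0.0217, same exact permutation test). For DMSO against resting it was 0.45 (p = 0.005, adjusted p = 0.0163, exact permutation test). The Mir26a-1 to Mir101a ratio was lower than at rest, by a mean log2 difference of -0.78 in stimulated cultures (p = 0.01, adjusted p = 0.0217) and of -1.19 in DMSO cultures (p = 0.005, adjusted p = 0.0163, same exact permutation test). It was 3.00, 2.53 and 2.75 in resting cells and 2.46, 3.81 and 3.68 in resting EVs. Without replicate 2 of each group the differences were -0.52 and -0.89.

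The Mir26a-2 to Mir26a-1 ratio, between the loci of 1 mature miRNA, lay between 0.921 and 1.17 in the 24 libraries. The counts of these rows differed by no more than counting error in 20 of 24 libraries, and by 0.0% to 16.1%. None of the 4 tests of this ratio passed, with log2 differences of -0.02 to 0.08. Since the mature strand is identical, and the sources used here do not give how reads were divided between the loci, the rows are not independent measurements. With both loci summed, and Mir101a summed with Mir101b, the fold of Mir101a for DMSO against resting cells was 0.00 in place of -1.08, because the sum holds the larger counts of Mir101b.

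**Figure D4:**
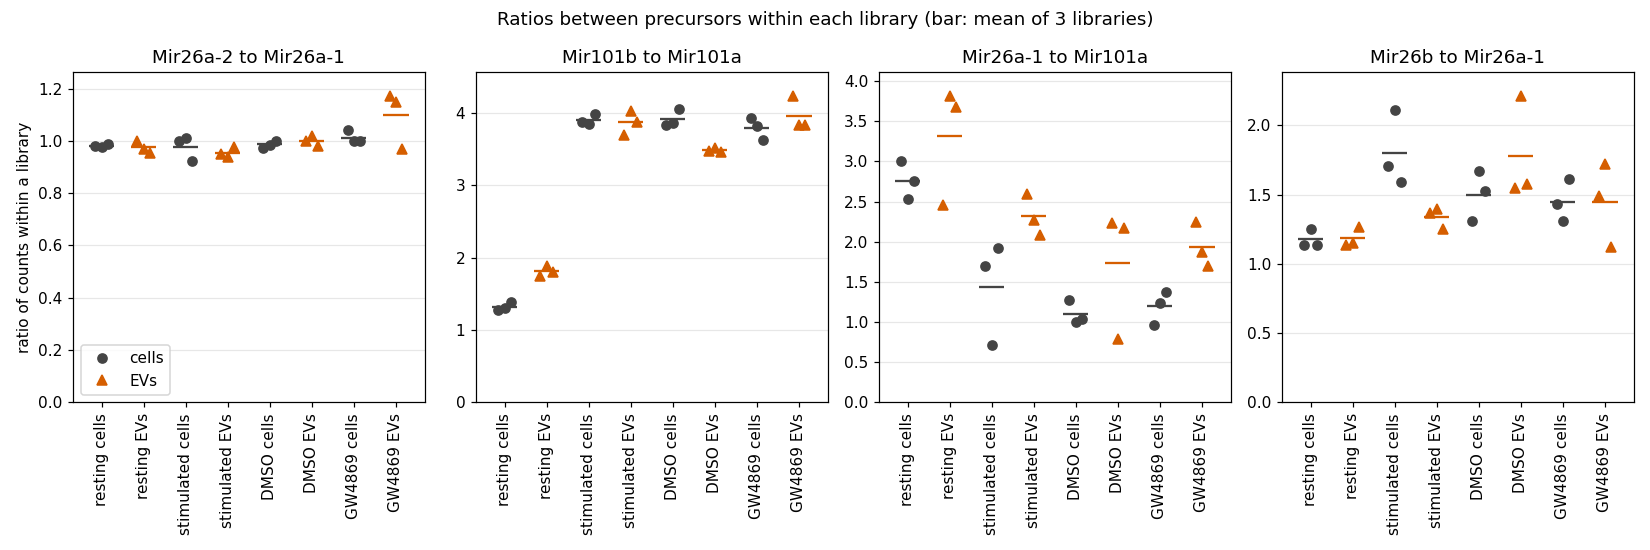
Ratios of counts between precursors within each of the 24 libraries, by group, with circles for cells, triangles for EVs and a bar at the mean of 3 libraries; each axis starts at 0. Mir101b to Mir101a lies at 1.28 to 1.88 in the resting libraries and at 3.46 to 4.23 in all others, and Mir26a-2 to Mir26a-1 at 0.921 to 1.17 throughout.

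Stimulated cultures with the vehicle gave a second comparison with the same resting libraries. In DMSO cells, 4 of 5 members were called lower than in resting cells, against 20.6% of all features and 40.6% of miRNA rows. Mir26a-1 was at 725, 583 and 602 CPM in DMSO cells, all under the resting values, with a log2 fold of -2.40 ± 0.21 (adjusted p = 7.73e-10, quasi-likelihood test of edgeR, Benjamini-Hochberg adjustment). Mir26a-2 also stood at -2.40, and Mir26b, at 946, 975 and 920 CPM, at -2.06 ± 0.19. Mir101a was at 572, 580 and 581 CPM, a log2 fold of -1.08 ± 0.24 (adjusted p = 0.000573). With library totals it was -0.41 (adjusted p = 0.0836, edgeR) and no longer called.

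Mir101b was at 2196, 2242 and 2351 CPM in DMSO cells. All 3 libraries lay above the 3 resting ones, but the log2 fold of 0.48 (95% interval -0.01 to 0.97, adjusted p = 0.114, same test) did not pass. It was called higher with library totals (1.16, adjusted p = 3.31e-05) and with TMM over miRNA rows alone (1.19, adjusted p = 1.8e-06, edgeR). In DMSO EVs all 5 members were called lower than in resting EVs, against 25.5% of all features and 83.9% of miRNA rows. Mir26a-1 was at 362, 283 and 444 CPM (-2.95 ± 0.21), Mir26a-2 at 288 to 434 CPM (-2.91 ± 0.21) and Mir26b at 559, 626 and 699 CPM (-2.40 ± 0.19).

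Mir101a was at 162, 360 and 204 CPM in DMSO EVs (-1.84 ± 0.24) and Mir101b at 565, 1266 and 708 CPM (-0.89 ± 0.24, adjusted p = 0.00271, same test). Replicate 2 was the highest DMSO EV library for both miR-101 rows and the lowest for miR-26a. Without it the log2 folds were -2.24 and -1.30, and under library totals that of Mir101b was 0.15, in the other direction. With TMM over miRNA rows alone Mir101b was called higher (0.73, adjusted p = 0.000815, edgeR), and Mir101a (-0.22, adjusted p = 0.235) was no longer called.

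The DMSO and stimulated cultures were also set against each other. In cells Mir101a (0.70 ± 0.24, adjusted p = 0.0267) and Mir101b (0.71 ± 0.24, adjusted p = 0.0264) were called higher with DMSO by the same test. These were 2 of 5 members, against 11.9% of all features and 16.9% of miRNA rows, whose median was 0.37. With TMM over miRNA rows alone neither Mir101a (0.38, adjusted p = 0.14, edgeR) nor Mir101b (0.39, adjusted p = 0.138) was called. DMSO cells lay above stimulated cells in every library for both. The call of Mir101a was lost under 5 of 6 omissions of 1 library, all but that of stimulated cells replicate 2, and that of Mir101b under 4. The folds were then 0.60 to 0.71 and 0.62 to 0.72, with adjusted p between 0.0549 and 0.0991. In EVs Mir26a-1 (-0.72 ± 0.20, adjusted p = 0.00909) and Mir26a-2 (-0.66 ± 0.20, adjusted p = 0.0173) were called lower with DMSO. These were 2 of 5 members, against 9.91% of all features and 10.2% of miRNA rows, whose median was -0.20. The rows of Mir26a-1 and Mir26a-2 are not independent measurements. With TMM over miRNA rows alone neither Mir26a-1 (-0.40, adjusted p = 0.343, edgeR) nor Mir26a-2 (-0.34, adjusted p = 0.419) was called. The call of Mir26a-2 was lost without DMSO EVs replicate 2 (-0.52, adjusted p = 0.0559) or stimulated EVs replicate 3 (-0.52, adjusted p = 0.0913). The vehicle cannot be told apart here from other differences between these sets of cultures.

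For each of the 4 conditions, the scaled counts of the members in EVs were compared with those in cells, as groups without pairing of libraries. In resting cultures 0 of 5 members were called, against 34.3% of all features in either direction (1 member had an unadjusted p under 0.05 and DESeq2 called 0). The log2 folds of EVs against cells were -0.26 for Mir26a-1, -0.27 for Mir26a-2, -0.25 for Mir26b, -0.49 for Mir101a (95% interval -0.98 to -0.01, adjusted p = 0.112, quasi-likelihood test of edgeR, Benjamini-Hochberg adjustment) and -0.05 for Mir101b. In stimulated cultures again 0 of 5 were called, against 53.5% of all features (0 members had an unadjusted p under 0.05 and DESeq2 called 0).

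There Mir26a-1 stood at 0.33 (95% interval -0.08 to 0.73), with 6 of 254 miRNA rows higher, Mir26a-2 at 0.30 and Mir26b at -0.07. Without stimulated cells replicate 2 the value of Mir26a-1 was 0.11, and with library totals it was called higher in EVs at 0.74 (adjusted p = 0.0101). Both miR-101 rows stood at -0.44, and without stimulated EVs replicate 3 both were called at -0.65 (adjusted p = 0.0398, same test). The median of the miRNA rows was -0.59 in this comparison, and 48.4% of them were called lower in EVs.

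In DMSO and in GW4869 cultures all 5 members were called lower in EVs than in cells, where 28.4% and 32.0% of all features were, and 91.3% and 93.3% of the miRNA rows. In DMSO cultures the log2 folds were -0.81 ± 0.20 for Mir26a-1, -0.79 ± 0.20 for Mir26a-2, -0.59 ± 0.18 for Mir26b, -1.26 ± 0.24 for Mir101a and -1.42 ± 0.24 for Mir101b, beside a miRNA median of -1.15. DMSO EVs and cells did not overlap for any member, and how many other miRNA rows did likewise was not counted. Without DMSO EVs replicate 2 the miR-101 folds were -1.66 and -1.83. With TMM over miRNA rows alone the 3 miR-26 folds turned to 0.50, 0.51 and 0.66 in DMSO cultures and to 0.65, 0.76 and 0.65 in GW4869 cultures.

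In GW4869 cultures the EVs held 344, 301 and 285 CPM of Mir26a-1 and the cells 528, 570 and 536 CPM. For Mir26a-2 the values were 404, 345 and 276 CPM against 548, 569 and 538 CPM. The log2 folds were -0.81 ± 0.20 and -0.69 ± 0.20, and the call of Mir26a-2 was lost without GW4869 EVs replicate 3 (-0.45, adjusted p = 0.0756, same test). Mir26b was at 514, 519 and 320 CPM in EVs and at 754, 744 and 860 CPM in cells (-0.80 ± 0.18). Mir101a was at 154, 161 and 168 CPM in EVs and at 546, 459 and 388 CPM in cells (-1.53 ± 0.24). Mir101b was at 650, 617 and 643 CPM in EVs and at 2147, 1754 and 1406 CPM in cells (-1.47 ± 0.24). No EV library reached a cell library for any of the 5, which again was not counted for other miRNA rows. The miRNA median was -1.44.

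Over the mean of the 4 conditions all 5 members were called lower in EVs, where 32.0% of all features and 93.7% of miRNA rows were. The log2 folds were -0.39 for Mir26a-1, -0.36 for Mir26a-2 and -0.43 for Mir26b, smaller than the miRNA median of -0.82, and -0.93 for Mir101a and -0.85 for Mir101b. For miR-26 the direction rested on the scaling: with library totals, which moved the median of all features by 0.48, the 3 values were 0.09, 0.12 and 0.05, and with TMM over miRNA rows alone 0.50, 0.52 and 0.45. Mir101b went from -0.85 to 0.01 with miRNA rows alone.

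The difference between Mir26a-1 and Mir101a needs no such scaling. No ratio of a miR-26 row to Mir101b was tested. The Mir26a-1 to Mir101a ratio was higher in EVs than in cells by a mean log2 difference of 0.56 (p = 0.00359, two-sided exact permutation test over 160000 arrangements within conditions, smallest possible p 1.25e-05; adjusted p = 0.0108 over 3 ratios). The mean difference was 0.24 in resting, 0.80 in stimulated, 0.51 in DMSO and 0.70 in GW4869 cultures, higher in EVs in each. In resting cultures EV replicate 1 (2.46) lay below all cell libraries (2.53 to 3.00). In stimulated cells the ratio was 1.70, 0.710 and 1.92 and in stimulated EVs 2.60, 2.27 and 2.08. In DMSO EVs it was 2.23, 0.786 and 2.17 beside 1.27, 1.00 and 1.04 in DMSO cells, where EV replicate 2 lay below all cell libraries. The Mir101b to Mir101a ratio (0.08, p = 0.139, adjusted p = 0.209) and the Mir26a-2 to Mir26a-1 ratio (0.02, p = 0.423, adjusted p = 0.423) did not pass this exact permutation test.

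**Figure D5:**
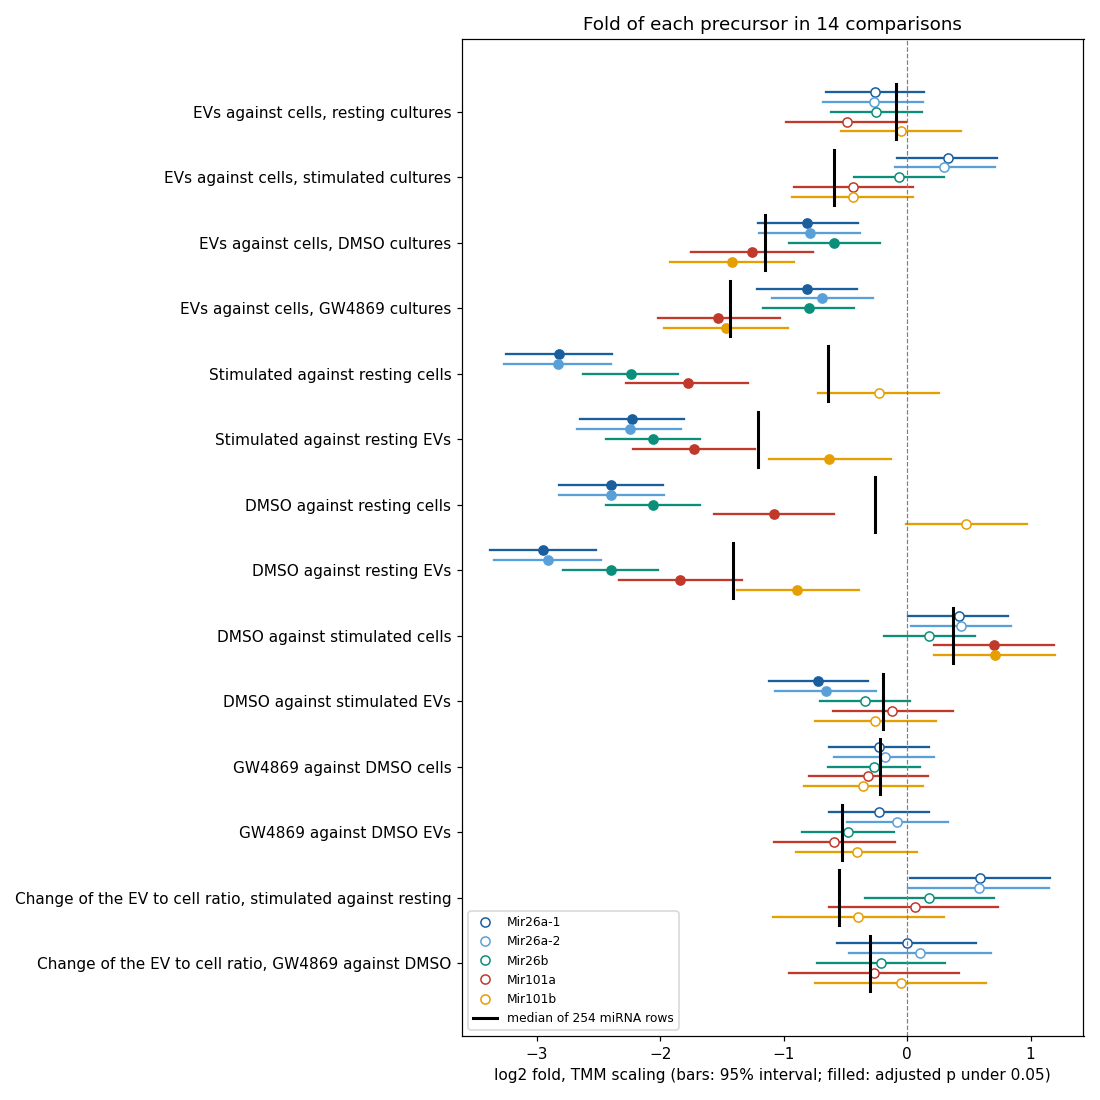
Log2 folds of the 5 precursors in 14 comparisons (points, with 95% intervals), filled where the adjusted p was under 0.05, with a black bar at the median of the 254 miRNA rows. In stimulated against resting cells the miR-26 points (-2.24 to -2.83) lie far below the miRNA median of -0.64, and in EVs against cells of GW4869 cultures they (-0.69 to -0.81) lie above the median of -1.44.

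The change of the EV to cell ratio between stimulated and resting cultures was called for 0 of 5 members, against 35.8% of all features (2 members had an unadjusted p under 0.05 and DESeq2 called 0). It was 0.59 ± 0.28 for Mir26a-1 (adjusted p = 0.0991, quasi-likelihood test of edgeR, Benjamini-Hochberg adjustment) and 0.58 ± 0.28 for Mir26a-2, beside a miRNA median of -0.55. Mir26b stood at 0.18, Mir101a at 0.06 and Mir101b at -0.40. Without stimulated cells replicate 2 the value of Mir26a-1 was 0.37.

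GW4869 was compared with its vehicle in cells and in EVs. In cells 0 of 5 members were called, against 2.99% of all features (0 had an unadjusted p under 0.05 and DESeq2 called 0), with log2 folds between -0.36 for Mir101b and -0.18 for Mir26a-2. The 95% intervals reached from -0.84 to 0.22 over the 5 members. In EVs 0 of 5 were called, against 17.6% of all features (2 had an unadjusted p under 0.05 and DESeq2 called 1). Mir26b stood at -0.48 (adjusted p = 0.0637, same test), with its GW4869 EV libraries below the 3 DMSO EV libraries, and Mir101a at -0.59 (adjusted p = 0.0838).

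Without DMSO EVs replicate 1 both were called, at -0.56 (adjusted p = 0.0359, same test) and -0.81 (adjusted p = 0.0170), whereas without replicate 2 the value of Mir101a was -0.19. Mir26a-1 (-0.23), Mir26a-2 (-0.08) and Mir101b (-0.41) were not called, and the miRNA median was -0.53. The change of the EV to cell ratio with GW4869 was called for 0 of 5 members, against 7.58% of all features (0 had an unadjusted p under 0.05 and DESeq2 called 0). Its values lay between -0.27 for Mir101a and 0.10 for Mir26a-2.

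The order of the levels over the 8 groups differed between members. Mir26a-1 was highest in resting cells (3362 ± 172 CPM, SD, n = 3), then in resting EVs (2802 ± 201 CPM). The other groups followed from DMSO cells (637 ± 77.2 CPM) to GW4869 EVs (310 ± 30.4 CPM), and each of them overlapped its neighbours in the order. Mir26b kept the resting groups on top (3954 ± 83.3 and 3328 ± 349 CPM) and was lowest in GW4869 EVs (451 ± 113 CPM), which lay below DMSO EVs (628 ± 70.1 CPM) without overlap.

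Mir101a went from resting cells (1221 ± 82.5 CPM) over resting EVs (868 ± 158 CPM) and DMSO cells (578 ± 4.92 CPM) to GW4869 cells (464 ± 78.9 CPM), without overlap between neighbours to that point. Below them stimulated cells, stimulated EVs, DMSO EVs and GW4869 EVs (161 ± 7.26 CPM) overlapped in turn. Mir101b was highest in DMSO cells (2263 ± 79.5 CPM), above GW4869 cells (1769 ± 371 CPM) and resting cells (1620 ± 168 CPM), and lowest in GW4869 EVs (637 ± 17.7 CPM). Below DMSO cells each group overlapped the next.

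The miRNA rows with the most similar pattern were found by Pearson's r of log2 CPM over the 8 group means among 249 other miRNA rows, given as a description, since all rows share libraries and scaling. For Mir26a-1 they were Mir30c-2 (0.975), Mir222 (0.975), Mir140 (0.974), Mir221 (0.973), Mir194-2 (0.970) and Mir30d (0.970). Mir30c-2 was at 1799 ± 172 CPM in resting cells and at 515 ± 49.7 CPM in stimulated cells. For Mir101a they were Mirlet7i (0.998), Mir7j (0.996), Mir16-1 (0.993), Mir181d (0.993), Mir16-2 (0.993) and Mir181c (0.992). Mirlet7i, of the let-7 family that restrains growth genes, was at 10290 ± 549 CPM in resting cells and at 2694 ± 645 CPM in stimulated cells (SD, n = 3). Among the members r was 0.993 between Mir26a-1 and Mir26b, 0.908 between Mir26a-1 and Mir101a, 0.804 between Mir101a and Mir101b and 0.517 between Mir26a-1 and Mir101b.

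A list of miRNAs that Myc represses in tumour cells had 31 rows, among them the 3 miR-26 rows, the let-7, miR-29 and miR-30 families and Mir150. In stimulated cells 26 of them fell and 2 rose against resting cells, where 49.2% of all miRNA rows fell, with a median log2 fold of -1.55 beside -0.64 for all miRNA rows. In EVs 28 fell and 2 rose, where 79.1% of miRNA rows fell, with a median of -1.76 beside -1.21. Without the 3 miR-26 rows, 23 of 28 fell in cells (median -1.51) and 25 of 28 in EVs (median -1.72). In DMSO cultures, set against the same resting libraries, 26 fell and 2 rose in cells, where 40.6% of miRNA rows fell, and 28 fell and 1 rose in EVs, where 83.9% did. Of 13 miRNA rows that T cell activation is known to raise, among them Mir155, Mir21a and the Mir17 cluster, 2 rose and 7 fell in stimulated against resting cells, with a median of -0.50. In stimulated EVs 1 rose and 12 fell (median -0.95), in DMSO cells 4 rose and 6 fell (-0.20), and in DMSO EVs 0 rose and 12 fell (-1.22). The shares of all miRNA rows that fell are those just given. The shares that rose were 9.06% in stimulated cells, 3.15% in stimulated EVs, 11.4% in DMSO cells and 2.76% in DMSO EVs. The resting cells had themselves been stimulated earlier.

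Of 10 published targets of miR-26 and miR-101, 5 were listed (Mcl1, Ccnd2, Ccne2, Cdk6 and Dnmt3a). Their counts are short fragments within the genes and no measure of the mRNAs. They summed to 72.7 to 76.8 CPM in resting cells and to 249 to 272 CPM in stimulated cells. The sum was 110 to 127 CPM in DMSO cells and 188 to 192 CPM in GW4869 cells. In EVs it was 169 to 192 CPM at rest and lower in the other cultures: 113 to 114 CPM (stimulated), 106 to 109 CPM (DMSO) and 91.3 to 105 CPM (GW4869). Of these 5, 2 rose and 0 fell in stimulated against resting cells, where 23.0% of all features rose and 23.1% fell. In EVs 1 rose and 2 fell, where 28.9% of all features rose and 25.2% fell. Against the same resting libraries, 3 rose and 1 fell in DMSO cells, where 19.4% of all features rose and 20.6% fell. In DMSO EVs 2 rose and 3 fell, where 31.3% of all features rose and 25.5% fell.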

How the data were processed

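The aligner was Bowtie and the builds were GRCm38 and mm10, per the submitters' processing notes. Not given in the sources used here are trimming, aligner settings, strand, the counting program and how reads with several alignments were treated. The deposited files hold, per the file headers, the authors' read count for each annotated feature, as whole numbers, not normalized. Each of the 24 files had 4441 lines, 33 of which repeated another line and were dropped, leaving 4408 features with counts of at least 4. No pair of libraries was alike within counting noise.

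Tests used edgeR 4.0.16 (R 4.3.3). The filterByExpr filter (minimum count 10) removed 0 features. TMM factors were 0.563 to 1.76. One quasi-likelihood model was fitted to the 8 groups, and p-values were adjusted by Benjamini-Hochberg over all 4408 features, with 0.05 as the threshold. Ratios within a library were log2 values of counts plus 0.5, compared by exact permutation tests. Sequences were matched to RefSeq (GRCm38.p6) and coordinates to GENCODE M21. DESeq2 1.42.0, other scalings, filters, fits and left-out libraries were alternatives.

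All members were named in each comparison, with their host genes and the 6 miRNA rows most similar to Mir26a-1 and to Mir101a. The gene E130102H24Rik and the Mir26b to Mir26a-1 ratio were added after the counts were seen. So were all tests of ratios against resting and of GW4869 against DMSO, which made 13 added ratio tests. The 3 planned ratio tests were those of the other ratios in EVs against cells. The members and lists were chosen with earlier results of these data known.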

Additional observations from a re-analysis of the deposited data

Results flagged for a closer look

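The Mir101b to Mir101a ratio moved in opposite ways between EVs and cells of different cultures. In resting cultures all 3 EV libraries (1.75 to 1.88) lay above all 3 cell libraries (1.28 to 1.39), a log2 difference of 0.45. In DMSO cultures all 3 EV libraries (3.46 to 3.51) lay below all 3 cell libraries (3.84 to 4.05), a log2 difference of -0.17. The difference between these cultures was not tested. In stimulated and GW4869 cultures EVs and cells overlapped, with differences of -0.01 and 0.06.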

How the results depend on the processing

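The 5 members in 15 comparisons gave 75 values. A value counts as kept if its call was unchanged, with the same direction where it was called. An uncalled value that changed sign is therefore among the kept ones. With DESeq2 72 were kept, with RLE factors 73, without a filter 75 and with a mean count of at least 50 71. With only the groups compared in the fit, which gave no mean of the 4 conditions, 65 of 70 were kept. With library totals 56 were kept and 7 reversed, and with TMM over miRNA rows alone 47 were kept and 14 reversed. Reversed values changed sign and were called in at least 1 of the fits compared. Of 600 values with 1 library left out, 580 were kept.

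The number of members called in EVs against cells of resting cultures went from 0 to 1 with a mean count of at least 50 and to 2 with only the groups compared. In stimulated cultures it went from 0 to 2 with library totals and to 3 with miRNA rows alone, all higher in EVs, and to between 0 and 2 with 1 library left out, the 2 being Mir101a and Mir101b, lower in EVs. In DMSO cultures it went from 5 to 2 with library totals and to 1 with miRNA rows alone, in GW4869 cultures from 5 to 2 with each of these, and over the 4 conditions from 5 to 2 and to 3. Under library totals the calls left in these 3 comparisons were Mir101a and Mir101b, lower in EVs. Under miRNA rows alone the calls were of miR-26 rows, higher in EVs, and 0 members were called lower. For DMSO against stimulated cells it went from 2 to 4 with RLE factors or DESeq2, to 0 with miRNA rows alone and to between 0 and 2 with 1 library left out. In EVs it went from 2 to 1 with library totals, to 0 with miRNA rows alone or only the groups compared, and to between 1 and 2 with 1 library left out. For GW4869 against DMSO EVs it went from 0 to 1 with a mean count of at least 50 or DESeq2 and to between 0 and 2 with 1 library left out. For the change of the EV to cell ratio after stimulation it went from 0 to 2 with library totals or a mean count of at least 50.

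With TMM over miRNA rows alone, EVs against cells reversed to 0.54 for Mir26b in stimulated cultures, to 0.50, 0.51 and 0.66 for Mir26a-1, Mir26a-2 and Mir26b in DMSO cultures, to 0.65, 0.76 and 0.65 in GW4869 cultures and to 0.50, 0.52 and 0.45 over the 4 conditions, with Mir101b at 0.01 there. Mir101b against resting reversed to 0.80 in stimulated cells, 0.83 in stimulated EVs and 0.73 in DMSO EVs. With library totals it reversed to 0.57, 0.47 and 0.15 in these, Mir26a-2 to 0.07 in GW4869 cultures, and Mir26a-1, Mir26a-2 and Mir26b to 0.09, 0.12 and 0.05 over the 4 conditions. With loci summed, Mir101a in DMSO against resting cells was 0.00. Scaling over miRNA rows alone centres on a class whose median moved, by construction.

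Replicate numbers did not pair the libraries (correlation of deviations -0.10 to 0.15, over 0.1 in 2 of 12 pairs, highest with the own number in 3 of 12 libraries). A replicate block changed no call in the 75 values. For ratios against resting, pairing by number gave -0.78 (p = 0.0625, exact permutation test) for Mir26a-1 to Mir101a and 0.39 (p = 0.0625) for Mir26b to Mir26a-1 in stimulated cultures. With 1 replicate left out of every group, no exact permutation p of the ratios against resting was under 0.0556, the smallest that such a design allows. In stimulated against resting the log2 differences were 1.32 to 1.33 for Mir101b to Mir101a, -0.98 to -0.52 for Mir26a-1 to Mir101a and 0.33 to 0.47 for Mir26b to Mir26a-1. In DMSO against resting they were 1.24 to 1.26, -1.45 to -0.89 and 0.34 to 0.52. Member counts of 350 or more make spread between libraries, not depth, the limit, and the causes of these shifts were not tested.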
